A study of Homo sapiens with 9 samples.

Results

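The genes described here encode 10 cell adhesion molecules of the immunoglobulin superfamily, most of them best known from neurons: the IgLON members LSAMP, NTM, NEGR1 and OPCML, the L1 family members L1CAM, CHL1 and NRCAM, and NCAM1, MCAM and ALCAM. They were taken by gene symbol from an RNA-seq table of 57736 genes, in which each of the 10 symbols had 1 row. The set was chosen on its family and on LSAMP, whose normalized counts had already been seen among the largest falls after PHF8 editing, so the members' differences from the control cells are given here as a description with no p-value. Where the side of a threshold is stated for them, it describes the fit and supports nothing. Of the 10 genes, 7 passed a minimum mean of 10 raw counts over all libraries, and OPCML, CHL1 and NRCAM did not.

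Immunoglobulin cell adhesion molecules carry immunoglobulin folds outside the cell and bind the same molecule, or a relative, on the neighbouring cell. The IgLON proteins are held in the outer membrane leaflet by a glycosylphosphatidylinositol anchor and have no cytoplasmic tail, whereas L1 family proteins cross the membrane and tether to ankyrin and spectrin inside the cell. Several members are familiar outside the brain: MCAM and ALCAM were named as melanoma and leukocyte antigens, and L1CAM is found at the surface of many melanomas and carcinomas.

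The libraries came from SKMEL-147, a human melanoma cell line that expressed Cas9 and received, by lentivirus, a scrambled guide with no target (sgScr) or 1 of 2 guides against PHF8, a histone lysine demethylase. Each of the 3 groups, sgScr, sgPHF8-1 and sgPHF8-3, had 3 libraries, A, B and C, made from total RNA after removal of ribosomal RNA. The transduced cultures were not described as single-cell clones, so a level is an average over edited and any unedited cells, and fewer expressing cells cannot be told apart from less RNA per cell. The libraries held 17366120 to 19838142 counts. The 3 libraries of a group were separate biological replicates by the study's methods. All pairs within a group differed by more than counting noise, with a chi-square per degree of freedom from 1.32 to 1.55 in sgScr, and up to 3.85 and 3.01 in pairs that held sgPHF8-1 B or sgPHF8-3 C.

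The cell line label was compared with marker genes. SOX10, a transcription factor of the melanocyte lineage, stood at a mean normalized count of 2771 in sgScr, 2440.2 in sgPHF8-1 and 2559 in sgPHF8-3, and MITF at 253, 229 and 279. The pigment genes MLANA and TYR had no read in any library, and PMEL, TYRP1, DCT and S100B had group means of at most 7.5, so the line carried SOX10 and MITF transcripts with few or none of the pigment markers. Summed over 6 neuron markers, the normalized counts were 43.7 to 53.4 in sgScr, 35.6 to 44.4 in sgPHF8-1 and 36.9 to 42.1 in sgPHF8-3, mostly from SNAP25, and the neuronal nuclear marker RBFOX3 had 1 read in all libraries together. The summed epithelial markers, mostly KRT14, were 38.1 to 44.0 in sgScr against 13.4 to 28.1 and 18.0 to 29.7 in the edited groups, and EPCAM and CDH1 had group means under 1. The summed leukocyte markers stayed at 15.8 or less, fibroblast markers were 374 to 426, 389 to 429 and 320 to 363, mostly LUM, and endothelial markers overlapped between the groups at 155 to 188, mostly TIE1. Whether these levels bear on the adhesion genes was not tested.

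The targeted gene was examined first. The sgPHF8-1 site lay at chrX:54069090-54069109 on the plus strand of GRCh37, in exon 2 of the 22 exons of the canonical PHF8 transcript, and the sgPHF8-3 site at chrX:53966772-53966791 on the minus strand, in exon 21. The cut fell in a coding exon in 13 of 22 annotated PHF8 transcripts for the former and in 4 of 22 for the latter. Both sites are shown 5′ to 3′ with the protospacer in lower case and the PAM in capitals, because the groups compared below differ by them:
sgPHF8-1: gtcacactcgatcatgaagcGGG
sgPHF8-3: tcctcctgagcctaaacaagAGG

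PHF8 had 655, 606 and 634 normalized counts in the sgScr libraries, 564, 571 and 565 in sgPHF8-1, and 399.8, 387 and 434 in sgPHF8-3. Both edited groups lay below all sgScr libraries, and sgPHF8-3 lay below sgPHF8-1. By edgeR's quasi-likelihood test over all genes, PHF8 fell by 0.63 ± 0.06 (SE) on the log2 scale with sgPHF8-3 (adjusted p = 8.5e-09) and by 0.16 ± 0.05 with sgPHF8-1 (adjusted p = 0.027), the latter without a call by DESeq2 (adjusted p = 0.10) or when sgScr A, sgScr C, sgPHF8-1 A or sgPHF8-1 C was left out. A transcript that carries a small insertion or deletion can still be counted, so these levels do not measure PHF8 protein. By Western blot the study reported efficient PHF8 knockout with both guides in this line.

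In the control cells the 7 measurable genes spanned a wide range of transcript level. Per kilobase of annotated exon, ALCAM (1061 ± 20.2 normalized counts per kb, SD, n = 3) and MCAM (1029.8 ± 15.8) were highest, ALCAM above MCAM in each of the 3 libraries although the ranges of mean ± SD overlapped, and 95.5% and 95.3% of 13907 tested genes were lower. L1CAM followed at 555 ± 28.3, then NTM at 156 ± 2.3, the most abundant IgLON, and NCAM1 at 94.6 ± 0.64, near the middle of all tested genes. NEGR1 (46.7 ± 2.5) and LSAMP (41.9 ± 1.3) were lowest of the 7, and 35.4% and 33.3% of tested genes were lower.

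**Figure D1:**
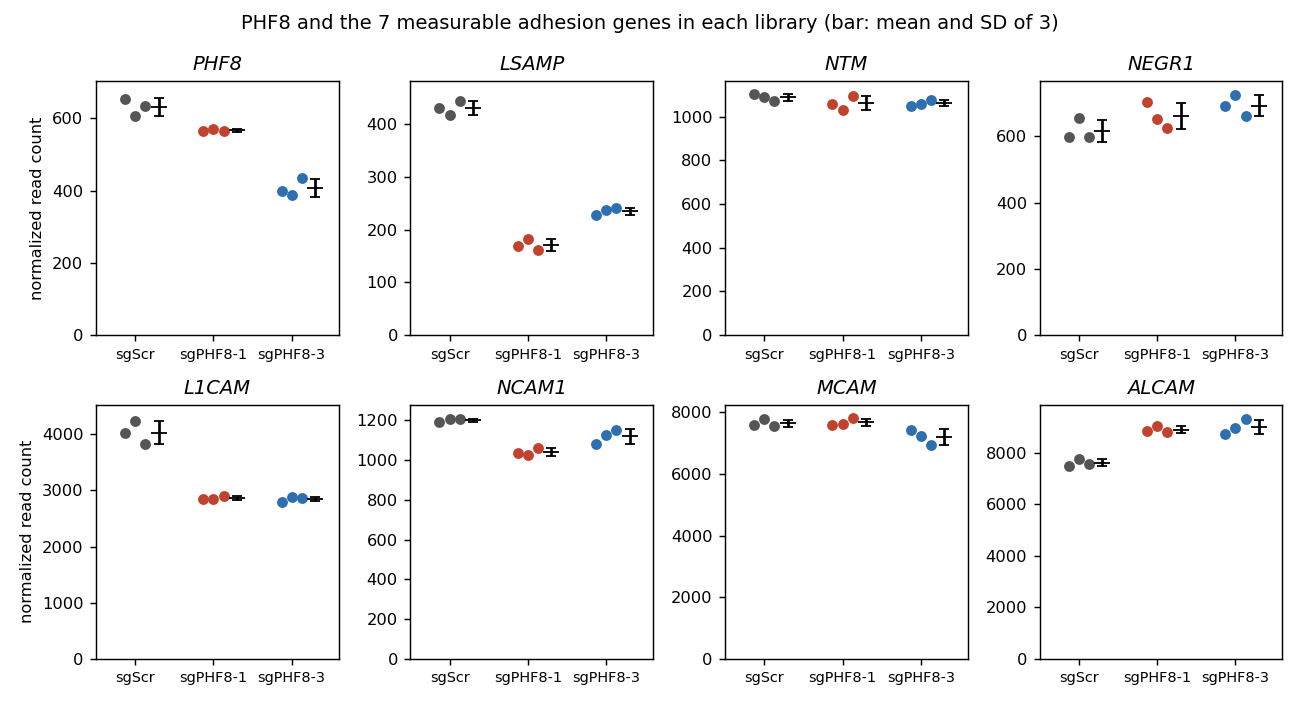
Normalized counts of PHF8 and of the 7 measurable adhesion genes in each library, with a separate linear axis from 0 for each gene; points are libraries and black marks the group mean and SD of sgScr, sgPHF8-1 and sgPHF8-3 (n = 3 each). The LSAMP libraries fall into 3 separate ranges, L1CAM is lower and ALCAM higher with both guides, and NTM overlaps between all groups.

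LSAMP, the limbic system-associated membrane protein, marks limbic neurons and guides their outgrowth, and its gene occupies chr3:115521221-116858236 on the minus strand (GRCh37). Its 250 bases before the annotated RefSeq start, chr3:116445488-116445737 on the minus strand of GRCh38.p14, are shown 5′ to 3′ with each CG dinucleotide in capitals, as this is the gene with the widest change and PHF8 acts at promoters:
LSAMP promoter: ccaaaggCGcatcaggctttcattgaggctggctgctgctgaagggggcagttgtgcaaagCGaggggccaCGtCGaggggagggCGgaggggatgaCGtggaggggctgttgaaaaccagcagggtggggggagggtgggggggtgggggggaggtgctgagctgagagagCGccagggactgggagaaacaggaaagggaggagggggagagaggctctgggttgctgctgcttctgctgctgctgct
The window held 7 CG dinucleotides against a median of 11 over 35116 RefSeq promoters of that length, and 65.2% G or C against a median of 58.0%. This RefSeq start lies inside the gene span given above, not at its upstream end. Which start these cells used was not tested.

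LSAMP transcripts were lower with both guides. The sgScr libraries held 430.2, 417 and 444 normalized counts, the sgPHF8-1 libraries 169, 183 and 161, and the sgPHF8-3 libraries 227, 238 and 240.0. No library of 1 group overlapped another group, and the order was sgScr, sgPHF8-3, sgPHF8-1 from high to low. Group means were 430.4 ± 13.8 (SD, n = 3) in sgScr, 171 ± 10.95 in sgPHF8-1 and 235 ± 6.7 in sgPHF8-3. Against sgScr the fitted log2 difference was -1.33 (SE 0.07, 95% interval -1.48 to -1.18) with sgPHF8-1, so that the level decreased by 60.3%, and -0.87 (SE 0.07, 95% interval -1.01 to -0.73) with sgPHF8-3, where it decreased by 45.4%. Ordered by log2 difference from the lowest, LSAMP stood at place 13 of 14230 tested genes with sgPHF8-1 and at place 53 with sgPHF8-3. A processed pseudogene on the same strand, BZW1P2, lies inside the LSAMP span and reached 73.0 normalized counts at most, and the other genes overlapping LSAMP reached 3.95 at most.

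The remaining IgLON genes did not follow LSAMP. NTM, neurotrimin (chr11:131240373-132206716), held 1103, 1088 and 1071 normalized counts in sgScr, 1057, 1031 and 1095 in sgPHF8-1, and 1048.5, 1057 and 1077 in sgPHF8-3. Those ranges overlapped, and the log2 difference was -0.04 with either guide, each with a 95% interval of -0.12 to 0.05. NEGR1, the neuronal growth regulator (chr1:71861626-72748222), held 597, 655 and 599 in sgScr, 704, 652 and 626 in sgPHF8-1, and 692, 724 and 661 in sgPHF8-3. Its sgPHF8-1 libraries overlapped sgScr and its sgPHF8-3 libraries lay just above, with log2 differences of 0.10 (95% interval -0.02 to 0.21) and 0.16 (95% interval 0.05 to 0.28), the latter short of the threshold in 6 of 12 alternative fits, among them those without sgScr A, sgScr C, sgPHF8-3 A or sgPHF8-3 B. OPCML, whose gene lies next to NTM on chromosome 11, had no read in any library, where 3 counts would be 0.151 to 0.173 CPM. IGLON5, the fifth of the family, had 2 reads in all and was not tested.

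The makeup of the IgLON transcripts also differed between groups, which largely restates the lower LSAMP level. Per kilobase of exon, LSAMP made up 17.1% ± 0.69 (SD, n = 3) of the summed IgLON level in sgScr, 7.60% ± 0.60 in sgPHF8-1 and 10.05% ± 0.21 in sgPHF8-3. The share of NTM was 63.8%, 69.6% and 67.0%, although its own level overlapped between the groups, since shares of 1 sum depend on each other. The summed IgLON level was 245 ± 2.1 normalized counts per kb in sgScr, 219 ± 3.4 in sgPHF8-1 and 228 ± 2.3 in sgPHF8-3. LSAMP alone stood at 41.9, 16.6 and 22.9 per kb in the same order.

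Of the L1 family, only L1CAM was measurable. L1CAM, which promotes neurite outgrowth and cell migration, lies at chrX:153126969-153151627 on the minus strand (GRCh37). The 250 bases before its downstream RefSeq start, chrX:153875945-153876194 on the minus strand of GRCh38.p14, are shown with CG in capitals for comparison with LSAMP, as L1CAM had the next widest difference with both guides:
L1CAM promoter: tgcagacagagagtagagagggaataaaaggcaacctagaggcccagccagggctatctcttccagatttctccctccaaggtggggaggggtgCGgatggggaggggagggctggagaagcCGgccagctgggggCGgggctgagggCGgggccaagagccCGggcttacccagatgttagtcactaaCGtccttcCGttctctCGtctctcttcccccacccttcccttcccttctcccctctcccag
This window held 8 CG dinucleotides and 62.4% G or C, and the window of a second, overlapping start held 5 CG dinucleotides. Which L1CAM start these cells used was not tested.

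L1CAM transcripts were lower by about the same amount with either guide. The sgScr libraries held 4025, 4239 and 3827 normalized counts, the sgPHF8-1 libraries 2854, 2841 and 2907, and the sgPHF8-3 libraries 2798, 2876 and 2857. All 6 edited libraries lay within a narrow band below sgScr, and the control libraries were the more scattered, with an SD of 206 against 34.8 and 40.9. The log2 difference was -0.49 (SE 0.03, 95% interval -0.56 to -0.42) with sgPHF8-1 and -0.50 (SE 0.03, 95% interval -0.57 to -0.43) with sgPHF8-3, so that the level decreased by 28.9% and decreased by 29.5%. L1CAM's share of the summed per-kilobase level of the 10 genes was 18.6% ± 0.60 in sgScr and 13.3% in each edited group.

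CHL1, the close homolog of L1 (chr3:238446-451100), had 1 read, in sgScr C. NRCAM, which gathers at nodes of Ranvier (chr7:107788068-108097161), had 5 reads in all, none of its libraries above 1. Neither reached the 3 counts taken as a floor in any library, so no difference was detectable at this depth and no fold is given. NFASC, neurofascin, the remaining L1 family gene and not one of the 10, was well expressed: its mean was 1267 normalized counts in sgScr, 1619.5 in sgPHF8-1 and 1419 in sgPHF8-3. It thus rose where L1CAM was lower, by 0.35 ± 0.04 (log2, SE) with sgPHF8-1 (edgeR adjusted p = 3.5e-07) and by 0.16 ± 0.04 with sgPHF8-3 (edgeR adjusted p = 0.0078, or 0.095 without sgScr B).

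NCAM1, the neural cell adhesion molecule that carries polysialic acid (chr11:112831997-113149158), was slightly lower in the edited cells. It held 1191, 1206 and 1205 normalized counts in sgScr, 1035.5, 1028 and 1063 in sgPHF8-1, and 1081, 1124 and 1153 in sgPHF8-3. Both edited groups lay below sgScr without overlap, with log2 differences of -0.20 (95% interval -0.29 to -0.12) and -0.10 (95% interval -0.18 to -0.02), and the second passed the threshold in 1 of 12 alternative fits, the one without sgPHF8-3 C. NCAM2, its paralog, had 41 reads in all and was not tested.

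MCAM, the melanoma cell adhesion molecule also called CD146 (chr11:119179239-119192231), was close to its control level. Its libraries held 7589, 7777 and 7562 normalized counts in sgScr, 7579, 7629.9 and 7806 in sgPHF8-1, and 7428, 7228 and 6922 in sgPHF8-3. Only sgPHF8-3 lay apart from sgScr, with a log2 difference of -0.09 (95% interval -0.15 to -0.02) against 0.00 (95% interval -0.06 to 0.07) with sgPHF8-1, and the former kept its call in 5 of 12 alternative fits, losing it with DESeq2 size factors in edgeR, with a replicate block, and without any 1 of the sgScr libraries, sgPHF8-3 B or sgPHF8-3 C. CBL overlaps MCAM on the opposite strand and reached 812 normalized counts, and whether counting used the strand was not given in the sources used here.

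ALCAM, activated leukocyte cell adhesion molecule or CD166 (chr3:105085753-105295744 on the plus strand), was the member higher with both guides in every library. Its promoter window, chr3:105366659-105366908 on the plus strand of GRCh38.p14, is shown with CG in capitals as the contrast to LSAMP and L1CAM:
ALCAM promoter: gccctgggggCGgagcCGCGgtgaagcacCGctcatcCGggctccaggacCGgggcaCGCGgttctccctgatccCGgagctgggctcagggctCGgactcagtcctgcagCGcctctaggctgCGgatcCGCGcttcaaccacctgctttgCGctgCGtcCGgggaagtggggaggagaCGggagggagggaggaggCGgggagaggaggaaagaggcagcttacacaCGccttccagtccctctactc
It held 20 CG dinucleotides, more than 67.6% of RefSeq promoters, and 68.8% G or C. A high count was not particular to ALCAM, as the MCAM window held 26 CG dinucleotides and an NTM window 19. RefSeq promoters were matched for 8 of the 10 genes, not for NEGR1 and NCAM1. A search of both strands found neither TATAAA (in 10.7% of all such promoters) nor CACGTG (in 6.34%) in the LSAMP, L1CAM or ALCAM windows. The SMAD-type element CAGAC (in 38.0%) was in the L1CAM windows, and also in those of MCAM and CHL1 and in some of NTM and NRCAM. The longer element GTCTAGAC (in 0.182%) was in no window of a member.

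ALCAM held 7489.6, 7774 and 7583 normalized counts in sgScr, 8841, 9045 and 8796 in sgPHF8-1, and 8735, 8974 and 9308 in sgPHF8-3. All 6 edited libraries lay above all 3 sgScr libraries, and the edited groups overlapped. The log2 difference was 0.22 (SE 0.03, 95% interval 0.16 to 0.29) with sgPHF8-1, a level 16.7% higher, and 0.24 (SE 0.03, 95% interval 0.18 to 0.30) with sgPHF8-3, 18.2% higher. ALCAM's share of the summed per-kilobase level of the 10 genes was 35.5% in sgScr, 41.7% in sgPHF8-1 and 42.8% in sgPHF8-3. The sum itself varied little, at 2985 ± 62.1 (SD, n = 3), 2968 ± 17.3 and 2931 ± 15.6 normalized counts per kb. It was mostly MCAM and ALCAM, at 34.5% and 35.5% in sgScr, against 1.4% for LSAMP, so it says little about LSAMP.

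**Figure D2:**
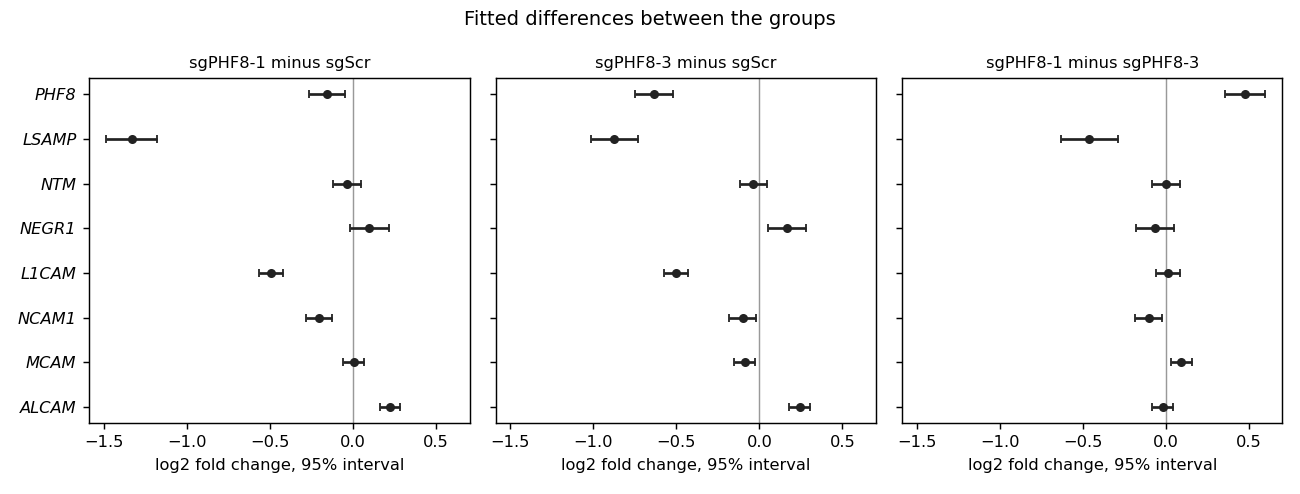
Log2 difference of each measurable adhesion gene and of PHF8 between sgPHF8-1 and sgScr, sgPHF8-3 and sgScr, and sgPHF8-1 and sgPHF8-3; points are edgeR estimates and lines their 95% intervals. LSAMP is the lowest of these genes with both guides, and its interval between the guides, -0.63 to -0.29, lies farthest from 0 among the adhesion genes.

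Counted over the 7 tested genes, 4 passed the threshold of an adjusted p of 0.05 with sgPHF8-1, 3 lower (LSAMP, L1CAM and NCAM1) and 1 higher (ALCAM). Over all 14230 tested genes 31.7% passed with that guide, 16.2% lower and 15.5% higher. With sgPHF8-3, 5 passed, LSAMP, L1CAM and MCAM lower and NEGR1 and ALCAM higher, where 19.8% of all genes passed, 10.1% lower and 9.75% higher. The libraries did not overlap sgScr for 4 of the 7 with sgPHF8-1 and 6 of the 7 with sgPHF8-3, against 42.9% and 37.0% of all genes. Of those, 3 and 4 members lay lower, where 21.4% and 18.1% of all genes did, and 1 and 2 higher, where 21.5% and 19.0% did. Nothing is read from these counts, because the choice of genes drew on the same contrasts. The median log2 difference of the 7 was -0.04 and -0.09, against 0.00 over all genes with either guide, and both comparisons share the sgScr libraries.

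**Figure D3:**
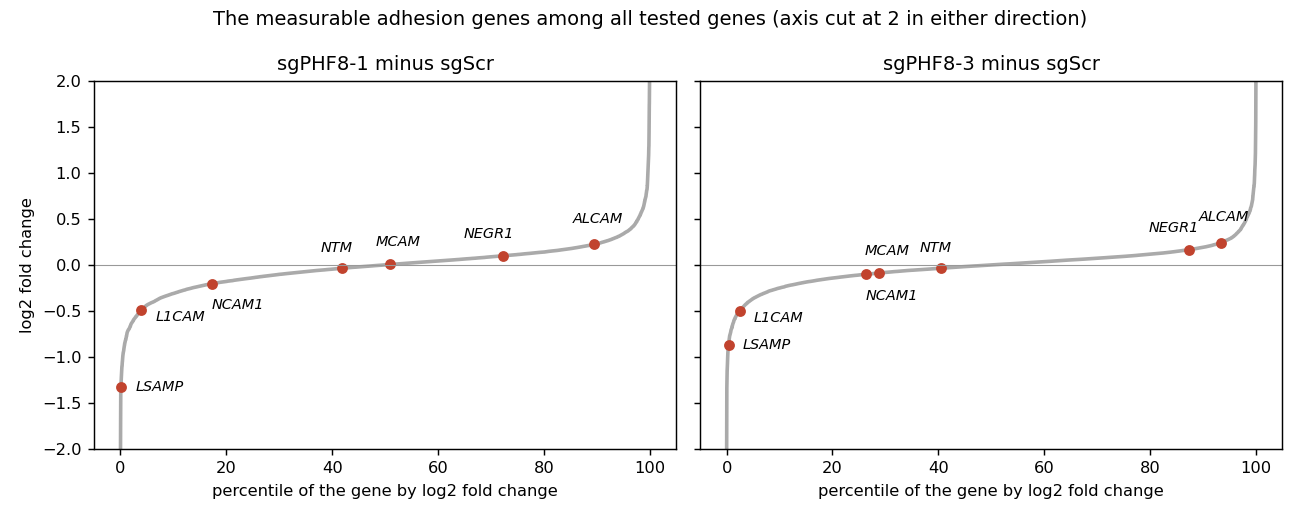
All 14230 tested genes ordered by log2 difference from sgScr (grey line; x axis, percentile; y axis, log2 difference, cut at 2 in either direction) for sgPHF8-1 and sgPHF8-3, with the 7 adhesion genes as red points. LSAMP and L1CAM sit in the lower tail, ALCAM toward the upper end, and NTM near the middle in both panels.

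A comparison of the guides with each other asked whether the amount of change depended on the guide. LSAMP had the widest difference of the 7: from sgPHF8-3 to sgPHF8-1 it fell by 0.46 ± 0.08 on the log2 scale (95% interval -0.63 to -0.29), and its level decreased by 27.3%. LSAMP was chosen for its fall in these same edited libraries, which was the wider with sgPHF8-1, so this value too is a description and is given no p-value. Over all genes 10.8% passed in this contrast, 5.99% lower and 4.79% higher, and of the 7 adhesion genes only LSAMP did. PHF8 itself went the other way, 0.48 ± 0.06 higher with sgPHF8-1 than with sgPHF8-3 (edgeR adjusted p = 4.4e-06). The guide with the higher PHF8 transcript level thus had the lower LSAMP level, but transcript level does not rank the loss of PHF8 protein.

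For the other 6 genes a difference between the guides was not called, and the intervals show how large it could be. L1CAM differed by 0.01 (95% interval -0.06 to 0.08, edgeR adjusted p = 0.89), ALCAM by -0.02 (95% interval -0.08 to 0.04, edgeR adjusted p = 0.77), and NTM by 0.00 (95% interval -0.08 to 0.08). NEGR1 differed by -0.07 (95% interval -0.18 to 0.05). NCAM1 was at -0.10 (95% interval -0.19 to -0.02, edgeR adjusted p = 0.10) and MCAM at 0.09 (95% interval 0.03 to 0.16, edgeR adjusted p = 0.053), and MCAM passed in 3 of 12 alternative fits, by DESeq2 and without sgPHF8-1 B or sgPHF8-3 A. Libraries of the 2 guides did not overlap for 3 of the 7 genes, where 25.8% of all genes did not.

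Other adhesion genes of the immunoglobulin superfamily were counted for comparison. Of a list of 58, 57 had a row and 33 were tested. With sgPHF8-1, 9 were lower, 5 higher and 19 not called, and with sgPHF8-3, 8 were lower, 2 higher and 23 not called, beside 16.2% lower and 15.5% higher over all genes with the former and 10.1% and 9.75% with the latter. The list's median log2 difference was -0.09 and -0.07, against 0.00 over all genes. With both guides 6 were lower and 2 higher, where 7.49% and 6.61% of all tested genes were.

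The 6 lower genes were cell surface receptors of diverse tissues. BCAM, the Lutheran blood group glycoprotein that binds laminin, fell by 0.55 ± 0.09 (log2, SE) with sgPHF8-1 and by 0.37 ± 0.08 with sgPHF8-3 (edgeR adjusted p = 1.9e-05 and 0.0025). CD58, the ligand of CD2 on T cells, fell by 0.44 ± 0.06 and by 0.27 ± 0.06 (edgeR adjusted p = 1.6e-06 and 0.001). CADM1, a synaptic and epithelial adhesion molecule, fell by 0.33 ± 0.05 and by 0.29 ± 0.05 (edgeR adjusted p = 2.4e-05 and 0.00033). KIRREL, PVRL2 (nectin 2) and F11R (junctional adhesion molecule A) fell by 0.11 to 0.27. F11R lost its call in 9 of 12 alternative fits with sgPHF8-1, among them all that left out a library except sgScr B, and in 3 of 12 with sgPHF8-3 (DESeq2, without sgScr A, without sgPHF8-3 B). PVRL2 lost it in 3 of 12 with sgPHF8-3, by DESeq2 and without sgScr B or sgPHF8-3 C. Besides NFASC, AMIGO2 was higher with both, by 0.20 ± 0.04 and 0.21 ± 0.04 (edgeR adjusted p = 9e-05 and 0.00011).

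Binding partners, cytoskeletal linkers, modifying enzymes and sheddases of the 10 proteins made a second list of 38 genes, of which 30 were tested. With sgPHF8-1, 12 were lower, 2 higher and 16 not called, and with sgPHF8-3, 9 were lower, 1 higher and 20 not called, where 16.2% and 15.5% of all genes were lower and higher with the former and 10.1% and 9.75% with the latter. With both guides 7 were lower and 1 higher, against 7.49% and 6.61% of all genes, and the median log2 difference was -0.10 and -0.07, against 0.00 over all genes. The spectrins that lie under L1 family and NCAM proteins were lower. SPTBN1 fell by 0.33 ± 0.03 with sgPHF8-1 and by 0.19 ± 0.03 with sgPHF8-3 (edgeR adjusted p = 1.5e-08 and 0.00018). SPTAN1 fell by 0.32 ± 0.04 and by 0.19 ± 0.04 (edgeR adjusted p = 1.3e-06 and 0.0015). Among the ankyrins, ANK3 was called higher with sgPHF8-1 alone, with means of 295, 336 and 323 normalized counts in sgScr, sgPHF8-1 and sgPHF8-3. ANK2 was called with neither guide, at 699, 761 and 706, and ANK1 was not tested. KIAA1598, which encodes shootin 1, a clutch between L1CAM and actin, fell by 0.36 ± 0.06 and by 0.18 ± 0.06 (edgeR adjusted p = 2.1e-05 and 0.021), the second without a call by DESeq2 and without sgScr A, sgPHF8-3 A or sgPHF8-3 B. NRP1, a semaphorin co-receptor that binds L1CAM, fell by 0.26 ± 0.03 and by 0.28 ± 0.03 (edgeR adjusted p = 1.2e-07 and 6.3e-08).

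GDNF and its receptor GFRA1, which can act through NCAM1, moved in opposite directions. GDNF fell by 0.35 ± 0.04 with sgPHF8-1 and by 0.18 ± 0.04 with sgPHF8-3 (edgeR adjusted p = 2e-07 and 0.0015). GFRA1 rose from a mean of 253 normalized counts in sgScr to 313 in sgPHF8-1 and 389 in sgPHF8-3, by 0.31 ± 0.08 and 0.62 ± 0.08 (edgeR adjusted p = 0.0037 and 1.5e-06). LGALS1, a galectin that binds L1CAM, and ADAM10, a protease that sheds L1CAM and ALCAM, fell by 0.17 and 0.14 with sgPHF8-1 and by 0.11 each with sgPHF8-3. With sgPHF8-3, LGALS1 lost its call in 5 of 12 alternative fits, without any 1 of the sgScr libraries, sgPHF8-3 B or sgPHF8-3 C, and ADAM10 in 4, without sgScr B, sgScr C, sgPHF8-3 A or sgPHF8-3 B.

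**Figure D4:**
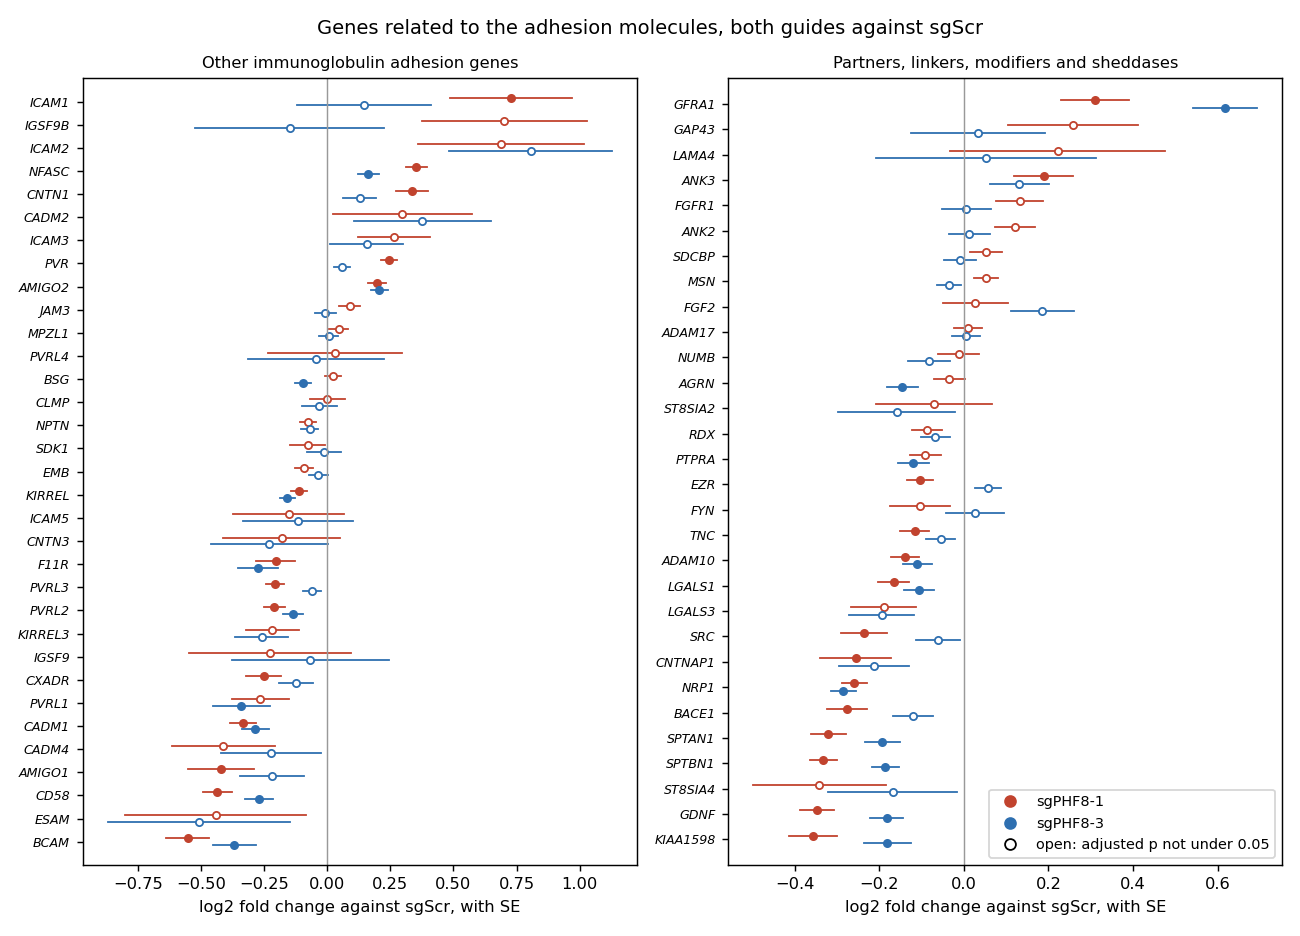
Log2 difference from sgScr of the 33 tested relatives (left) and the 30 tested partners (right), with sgPHF8-1 in red and sgPHF8-3 in blue; lines are standard errors, and open points did not pass an adjusted p of 0.05. Both guides share the 3 sgScr libraries. BCAM is lowest among the relatives called with both guides, at -0.55 and -0.37, and GFRA1 is highest among the partners, at 0.31 and 0.62.

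The genes whose pattern was most like that of LSAMP were ranked by Pearson correlation of log2(normalized count + 1) over the 9 libraries, among 11535 tested genes with a mean of at least 50. FAM20C, a secretory pathway kinase, came first (r = 0.996), then PTGFR, the prostaglandin F receptor (r = 0.995), HLA-DMB of antigen loading (r = 0.994), the serine protease HTRA1 (r = 0.994) and the peptidyl-prolyl isomerase FKBP9 (r = 0.994). The libraries fall into 3 groups, so these values mainly record the same order of group levels, and 36 genes exceeded 0.98. HTRA1, for instance, had group means of 1960, 870.0 and 1164 normalized counts in sgScr, sgPHF8-1 and sgPHF8-3, and HLA-DMB 459.5, 219.8 and 281. The same 5 genes led when CPM were used.

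Genes near the members were examined to see how far the differences reached, a check chosen after the values were seen. Within 1 Mb of LSAMP 3 genes were tested, of which GAP43 and ZBTB20 were called with neither guide. BZW1P2, the pseudogene inside the LSAMP span on the same strand, was lower with sgPHF8-1 and not called with sgPHF8-3. Whether its reads came from LSAMP transcripts was not tested. Around L1CAM 35 genes were tested, with 6 lower and 8 higher with sgPHF8-1 and 7 lower and 4 higher with sgPHF8-3, where 31.7% and 19.8% of all genes were called in either direction. CBLB, the single tested neighbour of ALCAM, was not called with either guide.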

How the data were processed

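RNA-seq reads of 9 libraries were aligned by the authors to hg19 with STAR and counted with HTSeq, and the submitters' processing notes also name bcl2fastq, Picard and DESeq2; the annotation release and strand setting were not given in the sources used here. The authors deposited raw counts per gene and a table of normalized counts (a signal that equals each raw count divided by a DESeq2 size factor, met within 0.01 counts in all 57736 rows). The raw table carries Ensembl identifiers and the other gene symbols, so the rows were paired by their values.

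Raw counts were fitted in edgeR 4.0.16 (R 4.3.3; TMM, quasi-likelihood F test, 1 fit of 3 groups) for the 14230 genes with a mean raw count of at least 10, with Benjamini-Hochberg adjustment over all of them and a threshold of 0.05. The fit was tested on simulated data with known changes. Log2 differences come from this fit, and levels are from the normalized table. Levels per kb use the union of GENCODE v44lift37 exons (GRCh37). A floor of 3 counts per library covers counting error only. The letters A, B and C were checked as pairs: same-letter libraries correlated at -0.08 to 0.05 in their deviations from group means. Other pairs between groups correlated at -0.09 to 0.14, so no pairing by letter was seen. Counting noise enters these deviations, so the check cannot tell whether libraries of a letter shared a culture or day.

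Alternatives were DESeq2 1.42.0, DESeq2 size factors in edgeR, no filter, filterByExpr, only the 2 groups compared, a replicate block, and leaving out each library. The named genes were PHF8, the 10 members, IGLON5, NFASC and NCAM2, up to 8 genes of either list called with both guides in 1 direction, and the 5 genes most like LSAMP. Members and lists were chosen with earlier results of these data known. Promoter sequences are from RefSeq (GRCh38.p14), and the guides from the study's reagent list, located on GRCh37.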

Additional observations from a re-analysis of the deposited data

Results flagged for a closer look

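The effect against the common sgScr libraries differed between the guides for 7 of PHF8, the members and the named relatives and partners, by edgeR's test of sgPHF8-1 against sgPHF8-3 over all 14230 genes, in which 10.8% passed. The 5 genes most like LSAMP were left out here, since they were picked for its pattern in the same libraries. Except for NFASC, taken for its family, the relatives and partners were picked for differences from sgScr in these same edited libraries. The count of 7 and their adjusted p-values thus describe the fit and support nothing. LSAMP was lower with sgPHF8-1 by a log2 difference of -0.46, a description because it was chosen for its fall in these libraries, while PHF8 was higher by 0.48 (adjusted p = 4.4e-06). NFASC, which was higher than sgScr with both guides, exceeded sgPHF8-3 in sgPHF8-1 by 0.19 (adjusted p = 0.0037), and GFRA1 was lower there at -0.31 (adjusted p = 0.0081). GDNF at -0.16 (adjusted p = 0.0095), SPTBN1 at -0.15 (adjusted p = 0.0042) and SPTAN1 at -0.13 (adjusted p = 0.048) were lower with sgPHF8-1. GDNF lost the call without sgPHF8-1 A or sgPHF8-3 B, and SPTAN1 without sgPHF8-1 A, sgPHF8-1 B, sgPHF8-3 B or sgPHF8-3 C and with only the 2 groups compared. Groups of 3 libraries were not searched for outlying libraries. The cause of these differences was not tested.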

How the results depend on the processing

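For PHF8, the 7 tested members and the 16 named relatives and partners (24 genes), no value past the threshold in either fit changed sign in the 12 alternatives of each contrast, whereas some uncalled values near 0 did (NTM, L1CAM, ALCAM and AMIGO2 between the guides, MCAM with sgPHF8-1). Of 864 values 803 stayed on their side of the threshold, called or not, 54 lost a call and 7 gained one. LSAMP ran from -1.38 to -1.30 with sgPHF8-1 and from -0.90 to -0.85 with sgPHF8-3, as a description. The 5 genes most like LSAMP were recomputed with CPM alone. By DESeq2, PHF8 with sgPHF8-1 was at -0.16 without a call, 1817 genes passed with sgPHF8-3 (2819 by edgeR) and 991 between the guides (1535), 2 of them members, with MCAM added. Leaving out 1 library each gave PHF8 with sgPHF8-1 at -0.19 to -0.13, 1873 (without sgScr B) to 2460.0 genes with sgPHF8-3, and 927 (without sgPHF8-3 B; 975 without sgPHF8-3 C) to 1493 between the guides. With sgPHF8-3 it left 3 (without sgScr A, sgScr C or sgPHF8-3 B) to 5 members, 6 (without sgScr B) to 10 relatives and 6 (without sgScr B) to 9 partners, and between the guides 1 to 2 members (2 without sgPHF8-1 B or sgPHF8-3 A). The cause was not tested beyond the smaller number of libraries. No pairing by letter was seen. A replicate block left 4376 genes with sgPHF8-1 (4507 without it), 2716 with sgPHF8-3 and 1488 between the guides. It ended the calls of MCAM with sgPHF8-3 and of F11R with sgPHF8-1, and changed no other call among the 24 genes. A library correlated best with its own letter in 4 of 18 cases. At this depth OPCML, CHL1 and NRCAM could not be compared.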
